A study of Homo sapiens with 6 samples.

Results

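Insulin and insulin-like growth factors act through a kinase relay that couples nutrient and growth factor supply to cell growth, and 37 genes of that relay were followed after depletion of gankyrin in SW480 cells. SW480 is an established human colon carcinoma line. Gankyrin, encoded by PSMD10, is an ankyrin-repeat protein that helps to assemble the regulatory particle of the proteasome. The genes were chosen by name as receptors, docking proteins, kinases, phosphatases and transcription factors of the pathway. That choice was made with earlier results of these data known. Of the 37, 34 had at least 1 microarray probe set paired with that gene alone, and each was read from its brightest such probe set, taken by the mean over 6 arrays. All 34 lay above the limit set for dim probe sets (3.6 on the log2 scale), IGFBP3 most narrowly. PIK3CA and PIK3R2 had no such probe set in the annotation used, and SGK3 was paired only with probe sets that other genes share.

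The tested cells carried a short hairpin RNA (shRNA) against gankyrin for 4 days (n = 3 arrays), and the control cells a non-targeting shRNA for the same time (n = 3 arrays). The labels name no treatment beyond the shRNA, do not say whether each hairpin was 1 sequence or several, and do not say whether replicates were separate cultures. Any p-value here thus reflects array-to-array spread, possibly of technical origin alone. The series design names NFIL3 as the knockdown target in 1 phrase and gankyrin elsewhere, so both were read. PSMD10 signals were 6.58, 6.47 and 6.30 on gankyrin shRNA arrays, against 10.19, 10.23 and 10.15 on control arrays, a 13.4-fold fall (limma adjusted p = 6.81e-09). NFIL3 averaged 9.07 ± 0.05 after gankyrin shRNA and 9.33 ± 0.13 in controls (SD, n = 3 each), and fell by 0.26 on the log2 scale (limma adjusted p = 0.0281). Of 12 colon epithelial markers, all 12 were above the dim limit, from CDH17 with a mean of 3.71 to KRT18 at 13.02. CDX2, a defining intestinal factor, was near the low end at 4.16, as was CDH17. PTPRC, KDR and ALB, which mark leukocytes, endothelium and liver, had means of 2.65, 2.12 and 2.47, the lowest of their lists. Other genes of those lists were higher, namely LYZ at 12.29, PECAM1 at 5.08, TTR at 6.18 and SERPINA1 at 12.81. Of the markers of other cell types that were above the limit, limma called 0 of 6 for leukocytes (1 at an unadjusted p under 0.05, and 1 called as higher without control replicate 3), and 0 of 2 for endothelium and 0 of 4 for liver (0 each at that p). It called 1 of 5 as higher for fibroblasts (FAP, by 0.84). Of the colon epithelial markers, 1 rose and 3 fell (8.33% and 25%), beside 8.13% and 14.3% of all genes tested. Without control replicate 3, 1 rose and 4 fell (8.33% and 33.3%), beside 12.7% and 16.6% of all genes.

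Binding of insulin or IGF to its receptor tyrosine kinase leads to phosphorylation of docking proteins of the IRS and GAB families, which recruit phosphoinositide 3-kinase (PI3K). The lipid that PI3K makes brings the kinases PDK1 and AKT to the membrane. AKT then restrains the TSC complex, freeing the GTPase RHEB to activate the kinase complex mTORC1, and it keeps FOXO transcription factors out of the nucleus. FOXO factors in turn activate genes of the same pathway, IRS2 and INSR among them, and mTORC1 and its target S6 kinase dampen signalling through IRS proteins.

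One array stood apart and bears on several results. On the control probe sets at the ends of the ACTB transcript, the 3' signal exceeded the 5' signal by 0.43, 0.50 and 0.53 on the gankyrin shRNA arrays and by 0.51, 0.52 and 1.82 on control replicates 1, 2 and 3 (log2). The Dap transcript, a bacterial RNA added to the sample, gave 0.90, 0.87 and 0.84 on the gankyrin shRNA arrays and 1.05, 1.03 and 3.16 on control replicates 1, 2 and 3. Control replicate 3 was thus the outlying array at the 5' end, also for an RNA that did not come from the cells, and its part in the differences below was not tested beyond leaving it out. Across genes its correlation with the other controls was 0.993, whereas control replicates 1 and 2 correlated at 0.998. The plot of all measured pathway genes therefore also shows each difference without this array, and the text gives it for the called genes that it moved by over 1.5 times and for the genes whose call it changed.

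**Figure D1:**
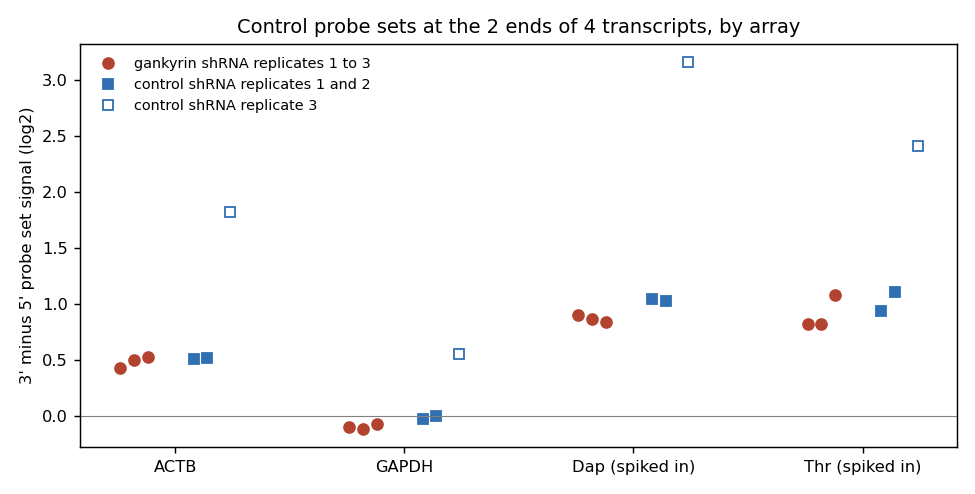
Difference between the 3' and the 5' control probe set of 4 transcripts on each array, in log2 units. Circles are gankyrin shRNA arrays, filled squares control replicates 1 and 2, and the open square control replicate 3, which lies above the other 5 arrays for every transcript, at 2.41 for the added Thr transcript against 0.82 to 1.11.

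Among the 34 measured genes, 5 rose and 9 fell after gankyrin shRNA at an adjusted p under 0.05 in limma. The rises were PIK3R1, INPP4B, DEPTOR, SGK1 and RPS6KB2, and the falls IRS2, INSR, PHLPP1, IGFBP4, GAB2, IRS1, IGF2R, IGFBP6 and FOXO3. Risers thus made up 14.7% of the group, beside 8.13% of the 14199 genes tested, and fallers 26.5%, beside 14.3%. Since the genes were chosen with earlier results of these data known, such shares describe the chosen genes only. The 3 gankyrin values lay wholly above or below the 3 control values for 17 of the 34 genes (50%), beside 40.3% of all genes. The median log2 difference was -0.12 for the group and -0.02 for all genes. Without control replicate 3, 5 genes rose and 11 fell, which is 14.7% and 32.4% of the group, beside 12.7% and 16.6% of all genes, and all 14 calls held in the same direction. The median then moved to -0.03 for the group and -0.003 for all genes. Of all calls, 36.2% were higher as deposited and 60.7% after each array was centred on the median of the tested genes, which raised all differences by 0.10 and left 5 rises and 8 falls in the group. RNA was taken from whole cultures, so a change in the RNA per cell and a change in the share of cells that express a gene cannot be told apart.

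**Figure D2:**
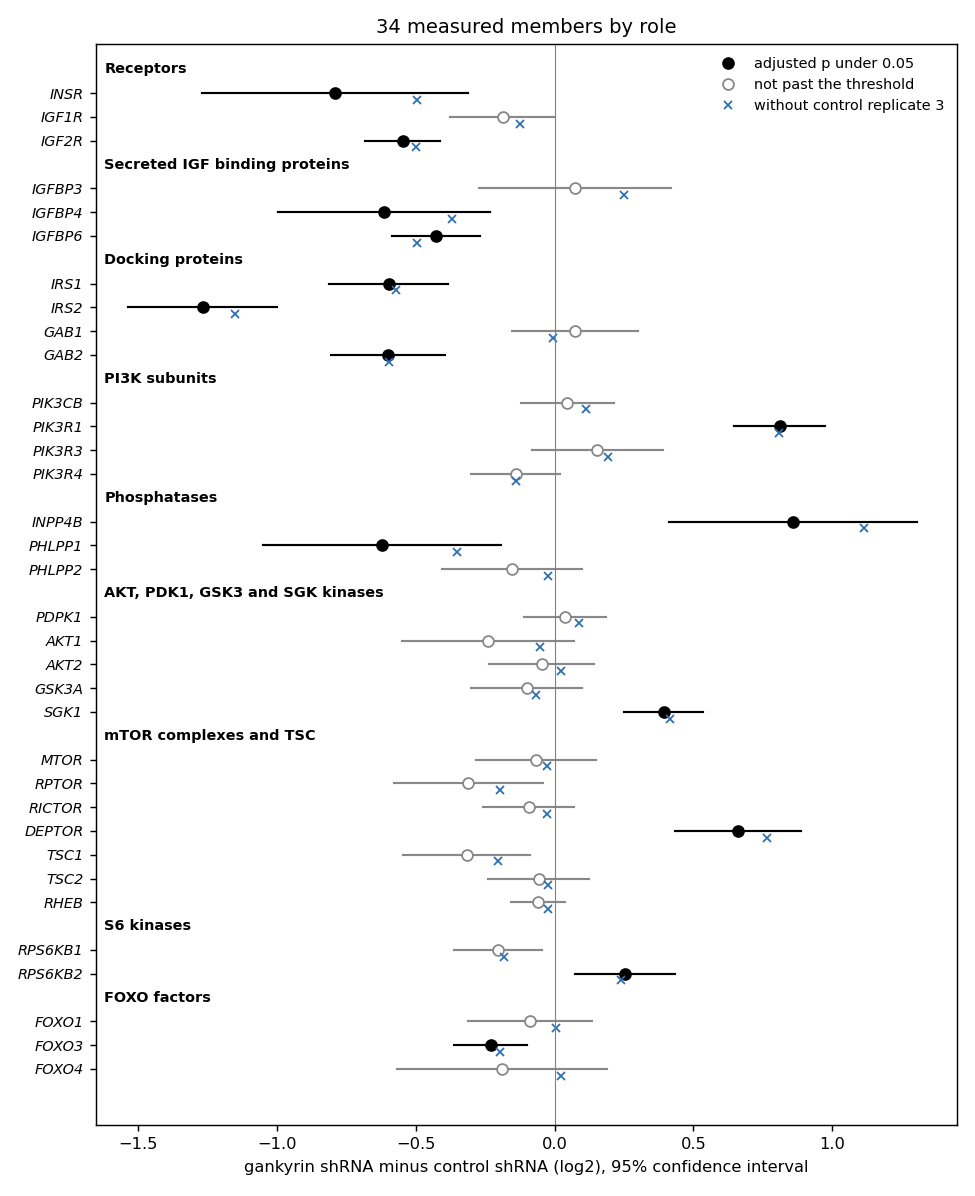
Log2 difference between gankyrin shRNA and control shRNA arrays for the 34 measured genes, ordered by role, with the 95% confidence interval of the limma fit. Filled points had an adjusted p under 0.05, and crosses give the difference without control replicate 3. IRS2 lies farthest to the left at -1.27 and INPP4B farthest to the right at 0.86.

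Of the receptors, INSR and IGF2R fell and IGF1R did not pass the test. INSR encodes the insulin receptor. Its signal was 5.69, 5.65 and 5.36 on gankyrin shRNA arrays, against 6.08, 6.04 and 6.95 on control arrays. The groups did not overlap, but the control mean was drawn up by replicate 3. INSR fell 1.73-fold (log2 -0.79 ± 0.21 SE, limma adjusted p = 0.0256), and the difference shrank to -0.49 without that control array, where it still passed (adjusted p = 0.00208). The call was lost without gankyrin replicate 1, 2 or 3, at adjusted p = 0.0632, 0.0699 and 0.111, and with its probe sets averaged, at -0.39 (0.0704). Of its dimmer probe sets, 1 passed at -0.53, and those at -0.21 and -0.01 did not.

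IGF2R, the cation-independent mannose 6-phosphate receptor, clears IGF2 and carries lysosomal enzymes. Its signal was 9.14, 9.18 and 9.13 on gankyrin shRNA arrays, against 9.62, 9.68 and 9.79 on control arrays, with narrow spread in both groups. IGF2R fell 1.46-fold (-0.55 ± 0.06 SE, adjusted p = 0.000295). Its dimmer probe set gave -0.10 and did not pass. IGF1R, the receptor for IGF1 and IGF2, was at 7.95, 7.82 and 8.01 on gankyrin shRNA arrays and at 8.10, 8.0 and 8.24 on control arrays. Those ranges overlapped, the difference was -0.19 with an interval of -0.38 to 0.00 (-0.12 without control replicate 3), and the adjusted p was 0.146. With all arrays the other IGF1R probe sets above the dim limit pointed the other way, at 0.01, 0.28 and 0.31, and none passed. Without control replicate 3 they gave 0.12, 0.18 and -0.015, and again none passed.

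The secreted IGF binding proteins hold IGFs in the medium and release them near receptors. IGFBP6, which prefers IGF2, gave 9.03, 8.96 and 9.04 on gankyrin shRNA arrays, against 9.47, 9.54 and 9.30 on control arrays. It fell 1.34-fold (log2 -0.43 ± 0.07 SE, limma adjusted p = 0.00257), and control replicate 3 was the lowest control here. IGFBP4, an inhibitor of IGF action, gave 8.41, 8.31 and 8.18 on gankyrin shRNA arrays, against 8.60, 8.74 and 9.40 on control arrays. Its fall of 0.61 on the log2 scale (± 0.17 SE, adjusted p = 0.0288) became -0.37 without control replicate 3 (adjusted p = 0.000966). It was lost without gankyrin replicate 1, 2 or 3 (adjusted p = 0.0661, 0.0878 and 0.115). IGFBP3, the main IGF carrier of blood, was dim on all arrays, at 3.59 to 3.89 after gankyrin shRNA and 3.41 to 4.02 in controls, and did not pass (adjusted p = 0.782).

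Docking proteins carried the deepest fall of the group. IRS2, which links the insulin and IGF1 receptors to PI3K, had signals of 5.68, 5.85 and 5.63 on gankyrin shRNA arrays, against 6.77, 6.97 and 7.22 on control arrays. Every control value lay above every gankyrin value, and control replicate 3 was the highest. IRS2 fell 2.41-fold (log2 -1.27 ± 0.12 SE, limma adjusted p = 0.000122) and ranked 58 of 14199 genes by size and 116 by p. Its dimmer probe set also passed, at -0.83.

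IRS1, the other widely expressed IRS protein, had signals of 8.27, 8.60 and 8.66 on gankyrin shRNA arrays, against 9.09, 9.07 and 9.16 on control arrays. It fell 1.51-fold (-0.60 ± 0.10 SE, adjusted p = 0.00224), and gankyrin replicate 1 was the lowest of all. Of its dimmer probe sets, 1 passed at -0.95 and the other, at -0.48, did not. GAB2, a scaffold that binds the PI3K regulatory subunit and the phosphatase SHP2, had signals of 6.41, 6.52 and 6.30 on gankyrin shRNA arrays, against 6.91, 7.10 and 7.02 on control arrays. GAB2 fell 1.52-fold (-0.60 ± 0.09 SE, adjusted p = 0.00173). The related GAB1 averaged 6.50 ± 0.12 after gankyrin shRNA and 6.43 ± 0.14 in controls (SD, n = 3 each), with an adjusted p of 0.656. Without control replicate 3 the 3 falls stood at -1.15 for IRS2, -0.57 for IRS1 and -0.60 for GAB2.

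**Figure D3:**
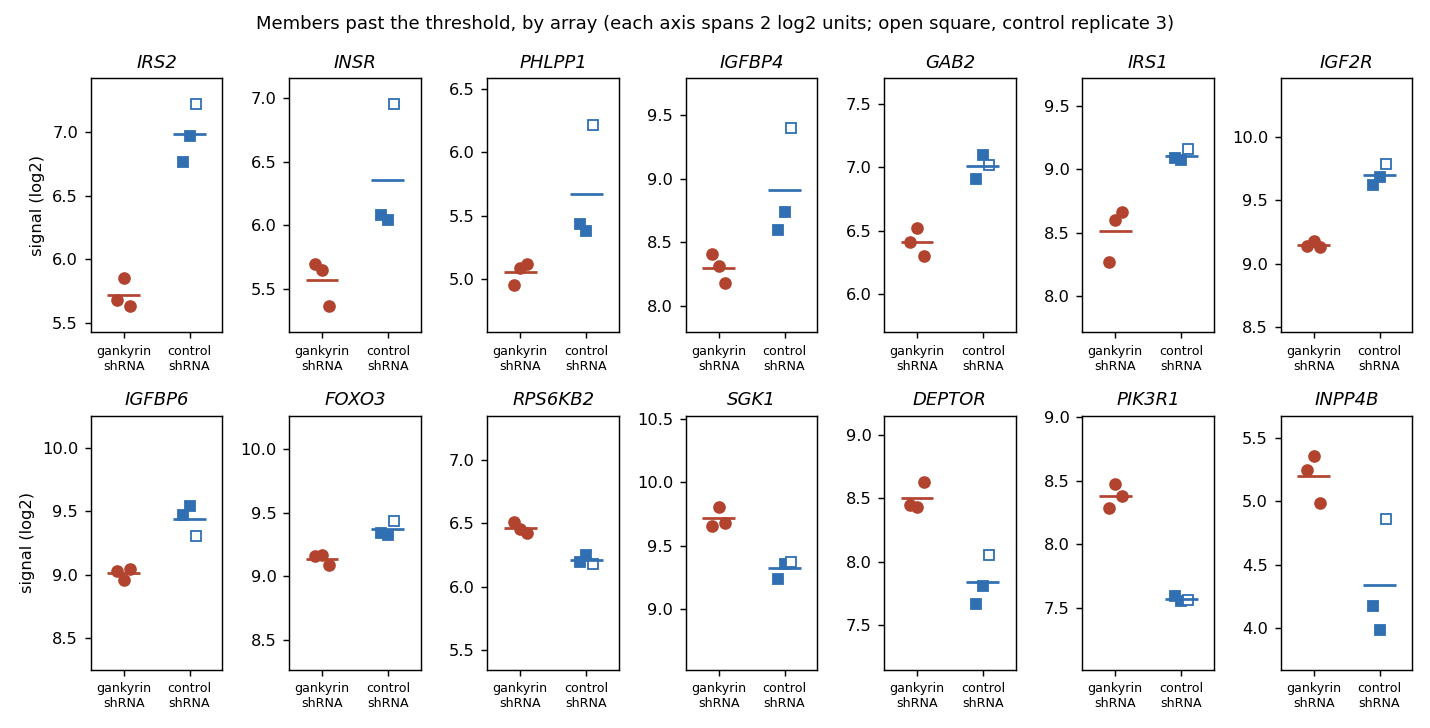
Signals (log2) on each array for the 14 genes past the threshold, ordered from the largest fall (IRS2) to the largest rise (INPP4B). Red circles at the left of each panel are gankyrin shRNA arrays, blue squares at the right control arrays with replicate 3 open, and bars the group means. Each vertical axis spans 2 log2 units, and control replicate 3 lies well above the other controls for INSR, PHLPP1, IGFBP4 and INPP4B.

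Promoters are shown for INSR, IRS1 and IRS2, the insulin receptor and the IRS docking proteins, since all 3 genes fell and FOXO factors are known to act on INSR and IRS2. The 250 bases before the RefSeq transcript start are given 5' to 3' on the gene's own strand (GRCh38.p14), at chr19:7294415-7294664, chr2:226799821-226800070 and chr13:109786584-109786833, all on the minus strand. Capitals mark the FOXO core GTAAACA, the E-box CACGTG, the GC box GGGCGG and the CCAAT box CCAAT, searched on both strands with overlapping matches kept.
INSR: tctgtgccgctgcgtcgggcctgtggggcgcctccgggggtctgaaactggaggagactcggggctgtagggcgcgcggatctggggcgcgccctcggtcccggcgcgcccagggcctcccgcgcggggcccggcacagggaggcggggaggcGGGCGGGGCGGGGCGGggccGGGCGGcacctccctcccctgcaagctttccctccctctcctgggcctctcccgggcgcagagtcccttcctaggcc
IRS1: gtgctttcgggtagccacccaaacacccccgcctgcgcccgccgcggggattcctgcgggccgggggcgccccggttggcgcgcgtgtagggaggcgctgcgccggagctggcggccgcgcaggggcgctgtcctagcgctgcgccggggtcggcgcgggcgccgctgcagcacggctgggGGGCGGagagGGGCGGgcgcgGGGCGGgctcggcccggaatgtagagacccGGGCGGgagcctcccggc
IRS2: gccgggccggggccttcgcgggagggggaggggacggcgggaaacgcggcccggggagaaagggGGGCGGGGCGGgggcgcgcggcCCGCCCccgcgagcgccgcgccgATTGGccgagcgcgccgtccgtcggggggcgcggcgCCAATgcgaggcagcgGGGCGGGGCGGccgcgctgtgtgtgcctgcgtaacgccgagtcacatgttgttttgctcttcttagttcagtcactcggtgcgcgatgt
INSR and IRS1 each held 4 GC boxes and no other searched motif, and IRS2 held 5 GC boxes and 2 CCAAT boxes. None of the 3 held GTAAACA in this window, which says nothing of sites elsewhere. Only these exact letters were searched, so FOXO sites of other sequence within the windows were not tested. Of all 35116 RefSeq promoter windows cut to the same length, 42.6% held a GC box, 32.0% a CCAAT box, 6.35% an E-box and 2.98% the FOXO core. By gene, 34 pathway genes had a window, the unmeasured PIK3CA and PIK3R2 among them, so these are not the 34 measured genes. Of them, 27 held a GC box, beside 46.2% of 27305 RefSeq genes, measured here or not. A CCAAT box was held by 13, beside 37.0%, and an E-box by 3, beside 7.73%. The FOXO core was held by 2 (IGFBP6 and PIK3CA), beside 3.66%.

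PI3K pairs a catalytic with a regulatory subunit, and 1 regulatory subunit rose. PIK3R1 encodes p85-alpha, which stabilises and restrains the catalytic subunit and docks it on IRS proteins. Its signal was 8.28, 8.47 and 8.38 on gankyrin shRNA arrays, against 7.59, 7.55 and 7.56 on control arrays. PIK3R1 rose 1.75-fold (log2 0.81 ± 0.07 SE, limma adjusted p = 8.40e-05), and its other probe sets rose too, by 0.38 and 0.60. The catalytic subunit PIK3CB was at 8.43, 8.50 and 8.43 on gankyrin shRNA arrays and at 8.34, 8.34 and 8.54 on control arrays, with a 95% interval of -0.12 to 0.21 for the difference. A dimmer PIK3CB probe set read 5.81, 6.23 and 5.74 after gankyrin shRNA, against 5.57, 5.70 and 3.05 in controls, so its difference of 1.15 fell to 0.29 without control replicate 3.

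PIK3R3, which encodes the regulatory subunit p55-gamma, differed by 0.15 on its brightest probe set (adjusted p = 0.341), whereas its dimmer one passed at 0.73 with all arrays and at 0.60 without control replicate 3. PIK3R4, the regulatory partner of the class III enzyme that works in autophagy, gave 7.53, 7.63 and 7.67 on gankyrin shRNA arrays and 7.72, 7.78 and 7.75 on control arrays. Its groups did not overlap, yet the difference of -0.14 ± 0.07 SE did not pass (adjusted p = 0.199).

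Phosphatases that oppose the pathway moved in opposite directions. INPP4B removes a phosphate from a lipid that forms downstream of PI3K and helps to activate AKT. Its signal was 5.25, 5.36 and 4.99 on gankyrin shRNA arrays, against 4.18, 3.99 and 4.86 on control arrays, and control replicate 3 came nearest to the gankyrin values. INPP4B rose 1.81-fold (log2 0.86 ± 0.20 SE, limma adjusted p = 0.0136), and by 1.12 without control replicate 3. The call was lost without gankyrin replicate 1 (adjusted p = 0.0566) or 2 (0.0640). A dimmer and tighter probe set of INPP4B passed at 0.52, with signals of 4.27 to 4.89. Both probe sets were thus read at low signal. On the brightest one, control replicates 1 and 2 lay below the medians of their arrays, 4.25 and 4.20. INPP4B was not tested under a stricter filter on dim probe sets, which removed it.

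PHLPP1 takes the activating phosphate from the tail of AKT. Its signal was 4.95, 5.09 and 5.12 on gankyrin shRNA arrays, against 5.43, 5.38 and 6.21 on control arrays. PHLPP1 fell by 0.62 on the log2 scale (± 0.19 SE, adjusted p = 0.0430), close to the threshold, and the difference was -0.35 without control replicate 3 (adjusted p = 0.0142). It was lost without gankyrin replicate 1, 2 or 3, at adjusted p = 0.142, 0.109 and 0.106. PHLPP2, its paralog, averaged 7.01 ± 0.07 after gankyrin shRNA and 7.16 ± 0.23 in controls (SD, n = 3 each) and did not pass (adjusted p = 0.371).

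The core kinases differed little. AKT1 was at 8.27, 8.30 and 8.16 on gankyrin shRNA arrays and at 8.21, 8.38 and 8.86 on control arrays. Its difference of -0.24 (95% interval -0.55 to 0.07, limma adjusted p = 0.255) was -0.05 without control replicate 3. AKT2 differed by -0.05 on its brightest probe set, with an interval of -0.23 to 0.14. PDPK1, the gene of PDK1, which switches AKT on, differed by 0.04 on its brightest probe set (interval -0.11 to 0.18). GSK3A, a kinase that AKT inhibits, differed by -0.10 (interval -0.30 to 0.10). None of these intervals reached a difference of 1 log2 unit, but smaller differences remain possible.

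Dimmer probe sets gave other values for AKT2 and PDPK1. One AKT2 probe set read 6.15, 6.10 and 6.18 after gankyrin shRNA, against 5.73, 5.38 and 3.96 in controls. Another read 6.16, 6.19 and 5.87 after gankyrin shRNA, against 5.27, 5.41 and 4.04 in controls. Control replicate 3 was lowest on both. Their differences of 1.12 and 1.17 did not pass with all arrays (adjusted p = 0.124 and 0.0705) and were 0.59 and 0.73 without control replicate 3, where both passed (adjusted p = 0.00189 and 0.000538). The remaining AKT2 probe sets gave -0.31, with no overlap between groups, -0.27 and 0.11, and did not pass. One PDPK1 probe set rose by 0.39 with all arrays, and 0.38 without that control, while the remaining PDPK1 probe sets did not pass.

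SGK1, a kinase related to AKT that mTORC2 activates and whose own transcript responds to hormones and stress, rose. Its signal was 9.66, 9.81 and 9.68 on gankyrin shRNA arrays, against 9.24, 9.36 and 9.37 on control arrays. The groups did not overlap, and control replicate 3 lay with its group. SGK1 rose 1.31-fold (log2 0.39 ± 0.06 SE, adjusted p = 0.00231). The SGK3 probe sets above the dim limit, shared with neighbouring genes, differed by -0.26 and 0.13 and did not pass.

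In the mTOR complexes DEPTOR rose and the remaining 6 genes did not pass. DEPTOR binds the mTOR kinase and inhibits both complexes. Its signal was 8.45, 8.43 and 8.63 on gankyrin shRNA arrays, against 7.67, 7.81 and 8.05 on control arrays. DEPTOR rose 1.58-fold (log2 0.66 ± 0.10 SE, limma adjusted p = 0.00177), and by 0.76 without control replicate 3. MTOR, the kinase itself, was at 5.6, 5.78 and 5.71 on gankyrin shRNA arrays and at 5.64, 5.81 and 5.84 on control arrays, which overlapped. The mTORC1 scaffold RPTOR was at 6.00, 5.85 and 5.94 on gankyrin shRNA arrays and at 6.25, 6.00 and 6.47 on control arrays (-0.31, adjusted p = 0.0932). It passed as lower without control replicate 2 (adjusted p = 0.0314), and the difference was -0.20 without control replicate 3. The mTORC2 scaffold RICTOR differed by -0.09 (interval -0.26 to 0.07). Its other probe sets gave -0.43 and -0.24, with no overlap between groups, and did not pass. They gave -0.18 and -0.21 without control replicate 3 and did not pass there either.

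TSC1, the stabilising subunit of the brake on RHEB, narrowly missed the threshold. Its signal was 7.22, 7.20 and 7.32 on gankyrin shRNA arrays, against 7.43, 7.47 and 7.79 on control arrays, with no overlap (-0.32 ± 0.10 SE, adjusted p = 0.0502). It passed without control replicate 3, at -0.20 (adjusted p = 0.0377), and without control replicate 1 (adjusted p = 0.0364). TSC2, the catalytic partner, differed by -0.06, with an interval of -0.24 to 0.13. RHEB was at 11.89, 11.96 and 11.87 on gankyrin shRNA arrays and at 11.92, 11.94 and 12.04 on control arrays, a difference of -0.06 (interval -0.16 to 0.04). Of its 7 other probe sets above the dim limit, 1 passed, at 0.69, and the rest lay between -0.12 and 0.07.

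Of the S6 kinases, which mTORC1 activates, RPS6KB2 rose and RPS6KB1 did not pass. RPS6KB2 was at 6.51, 6.45 and 6.42 on gankyrin shRNA arrays, against 6.19, 6.25 and 6.18 on control arrays. RPS6KB2 rose by 0.25 on the log2 scale (± 0.08 SE, limma adjusted p = 0.0487), the weakest call of the group, and missed the threshold without any 1 of 5 arrays (adjusted p 0.0829 to 0.170), though not without control replicate 3. RPS6KB1 was at 8.65, 8.85 and 8.65 on gankyrin shRNA arrays, against 8.89, 8.91 and 8.96 on control arrays (-0.20, adjusted p = 0.0670). It passed as lower without control replicate 3 (adjusted p = 0.0447) or gankyrin replicate 2 (0.0450) and after quantile normalization (0.0478). Its dimmer probe sets, at 0.09 and 0.41, did not pass, and were at 0.01 and 0.13 without control replicate 3.

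Of the FOXO factors, which AKT phosphorylation keeps out of the nucleus, FOXO3 fell. Its signal was 9.16, 9.17 and 9.09 on gankyrin shRNA arrays, against 9.34, 9.33 and 9.44 on control arrays. The difference was small and tight (log2 -0.23 ± 0.06 SE, limma adjusted p = 0.0203). It was lost without gankyrin replicate 1, 2 or 3 (adjusted p = 0.0654, 0.0614 and 0.0965) and after centring on the tested genes, at -0.13 (0.0926). Its other probe sets paired with FOXO3 alone gave -0.27, -0.28 and -0.39 and did not pass. Without control replicate 3 they gave -0.10, -0.16 and -0.17 and did not pass either. Probe sets shared with the near-identical FOXO3B differed by -0.22, 0.21 and 0.48. Without control replicate 3 these became -0.21, 0.002 and -0.01. FOXO1 averaged 6.14 ± 0.05 after gankyrin shRNA and 6.23 ± 0.16 in controls, and FOXO4 5.06 ± 0.10 and 5.25 ± 0.39 (SD, n = 3 each), and neither passed.

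Because many of these genes have several probe sets, all 78 of theirs above the dim limit were also tested one by one, in a fit of all 32759 probe sets above that limit. That fit called 10.6% of probe sets with all arrays and 21.7% without control replicate 3. Of the 14 genes called above, 9 also passed on the same brightest probe set, and INSR, IGFBP4, INPP4B, PHLPP1 and RPS6KB2 did not. The called genes had 13 further probe sets, all of which had the sign of the brightest, and 6 of the 13 passed. For 1 INSR probe set that sign rested on -0.01, which became 0.09 without control replicate 3. The genes not called had 31 further probe sets, of which 3 passed, for PIK3R3, PDPK1 and RHEB.

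**Figure D4:**
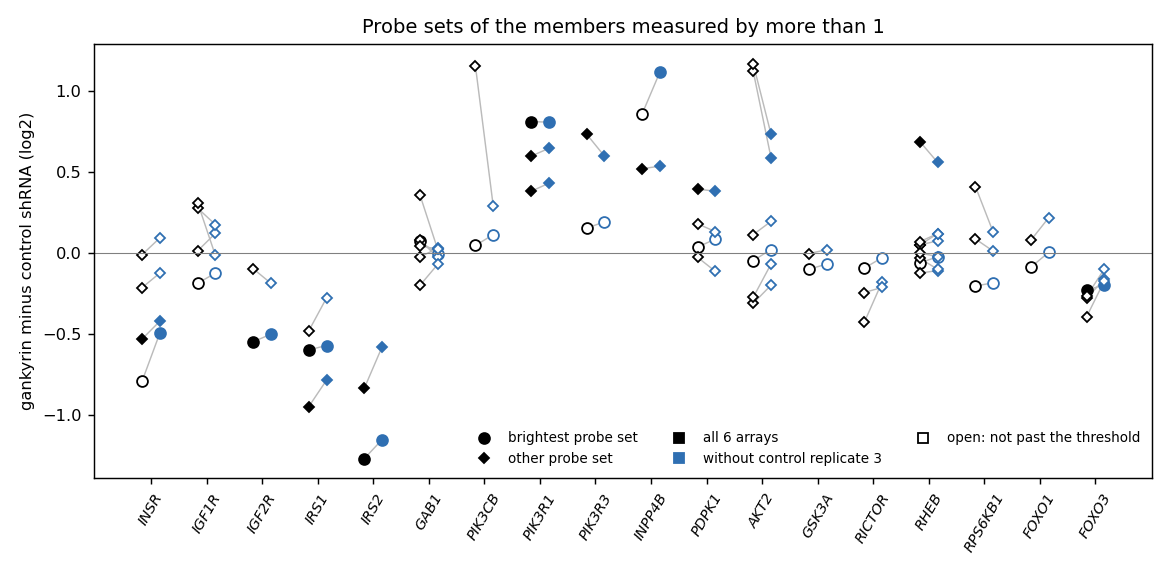
Log2 difference between gankyrin shRNA and control shRNA arrays for each probe set of the 18 genes that have more than 1 above the dim limit. Black symbols use all 6 arrays and blue ones leave out control replicate 3; circles are the brightest probe set of a gene, diamonds the others, and open symbols did not pass in the fit of all probe sets. Lines join the same probe set, and the PIK3CB diamond lies at 1.15 with all arrays and at 0.29 without that control.

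Beyond the named genes, 140 further genes of the pathway were listed in 6 lists, also with earlier results of these data known. Shares beside all genes thus describe the chosen genes only. Of the 140, 123 were measured. Of these, 10 rose and 24 fell (8.13% and 19.5%), beside 8.13% and 14.3% of all genes, with a median log2 difference of -0.07, beside -0.02. Without control replicate 3, 17 rose and 30 fell (13.8% and 24.4%), beside 12.7% and 16.6% of all genes. Among 17 measured ligands, binding proteins and adaptors, 1 rose and 3 fell (5.88% and 17.6%). Without control replicate 3, 3 of these rose and 5 fell (17.6% and 29.4%). IGFBP2, another IGF binding protein, rose by 0.90 ± 0.11 (log2 ± SE), a direction opposite to IGFBP4 and IGFBP6. CBL, a ubiquitin ligase for activated receptors, and the docking protein DOK1 fell, at -0.45 ± 0.08 and -0.32 ± 0.09. Among 17 other PI3K subunits and phosphoinositide phosphatases, limma called 0, with 2 at an unadjusted p under 0.05, and called 1 as lower without control replicate 3.

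AKT regulators and substrates had 2 rises and 5 falls among 19 (10.5% and 26.3%, beside 8.13% and 14.3% of all genes). The counts were the same without control replicate 3, where 12.7% of all genes rose and 16.6% fell. AKT1S1, an inhibitory mTORC1 subunit that AKT phosphorylates, rose by 0.59 ± 0.09, whereas NDRG1, a substrate of SGK1, and the kinase WNK1 fell, at -0.99 ± 0.14 and -0.59 ± 0.07. The 33 genes of the mTOR complexes and of amino acid sensing at the lysosome had 5 rises and 5 falls. That was 15.2% each, beside 8.13% and 14.3% of all genes. Without control replicate 3 there were 6 rises and 7 falls (18.2% and 21.2%, beside 12.7% and 16.6% of all genes). The sestrins, which relay leucine shortage and stress to mTORC1, split. SESN1 rose by 0.51 ± 0.09 and SESN3 fell, at -0.85 ± 0.16, and both are also FOXO targets. FNIP1, a partner of folliculin in lysosomal signalling, fell, at -0.50 ± 0.09. Another 17 genes of translation and growth were listed as effectors of mTORC1 or relatives of these. Of them, 0 rose and 4 fell (23.5%), beside 8.13% and 14.3% of all genes. Without control replicate 3, 4 rose and 4 fell (23.5% each, beside 12.7% and 16.6% of all genes). EIF4EBP1, the translation repressor that mTORC1 inactivates, fell, at -0.59 ± 0.06, as did the S6 kinase relative RPS6KA1 (-0.65 ± 0.11) and the elongation factor kinase EEF2K (-0.37 ± 0.11, and -0.24 without control replicate 3).

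FOXO target genes had 3 rises and 8 falls among 23 (13% and 34.8%, beside 8.13% and 14.3% of all genes), with a median of -0.15, beside -0.02 for all genes. Without control replicate 3, 4 rose and 9 fell (17.4% and 39.1%, beside 12.7% and 16.6%), with a median of -0.08. CAT, the catalase gene, rose by 0.61 ± 0.06. TXNIP, a thioredoxin inhibitor that limits glucose uptake, fell, at -0.39 ± 0.04, and the zinc finger factor KLF6 fell, at -0.66 ± 0.12. The adjusted p-values of the 15 pathway genes named from the lists lay between 0.000111 and 0.0358 (limma, n = 3 per group). Averaging the probe sets of a gene ended the calls of CBL and TXNIP, both at -0.09, and of EEF2K (adjusted p = 0.111). DOK1 and EEF2K were also lost without any 1 gankyrin array, at adjusted p 0.0894 to 0.120.

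**Figure D5:**
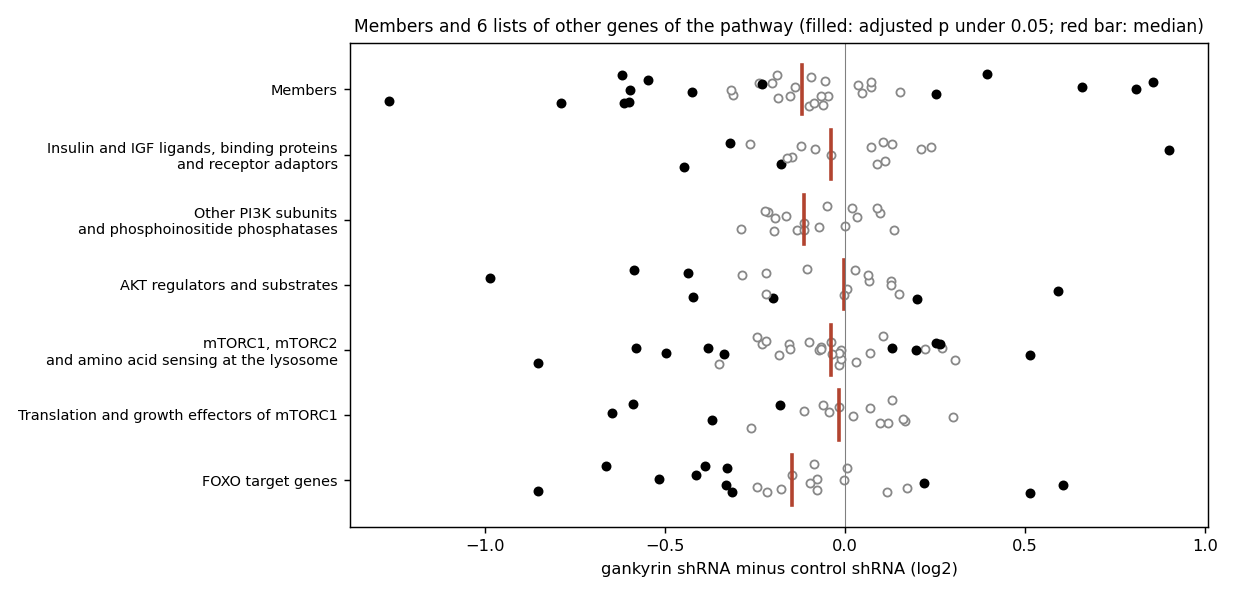
Log2 difference between gankyrin shRNA and control shRNA arrays for the 34 measured genes (top row) and for 6 lists of other pathway genes. Each point is 1 gene, filled where the adjusted p was under 0.05, and the red bar is the median, from -0.15 for FOXO targets to -0.003 for AKT regulators and substrates.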

How the data were processed

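RNA of 6 SW480 samples was measured on Affymetrix arrays from 6 ug of total RNA each. The authors deposited 54675 probe set signals, taken as log2 from their range of 1.29 to 13.68. The submitters' processing notes name MAS5 without saying what it did or which version it was, so the summary method behind these signals is not settled. Array medians were 4.20 to 4.25, so no further normalization was applied. Groups came from the sample titles. Probe sets were named from the platform annotation, updated through Entrez identifiers to RefSeq symbols (GRCh38.p14): 41091 had 1 gene, 1801 several, 11721 none named here, and 62 were controls.

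Controls and the lowest 40% of other probe sets by mean of 6 arrays were left out, and each gene kept its brightest single-gene probe set (14199 genes). limma 3.58.1 in R 4.3.3 (lmFit, eBayes with intensity trend) was run two-sided across all genes with Benjamini-Hochberg adjustment at 0.05, and differences are gankyrin shRNA minus control shRNA. "Rose" and "fell" mean past that threshold. An exact permutation test of 1 gene in 3 against 3 arrays cannot go below p = 0.1. The fit was tested on simulated data. The simulated noise was independent between arrays, with no outlying array, so that test cannot bear on calls that depend on control replicate 3. Alternatives changed the scaling, the filter on dim probe sets, the choice or averaging of probe sets, the variance prior and the replicate block, or left out each array in turn. Intervals rest on 3 arrays a group, which limits precision. The genes and lists were chosen with earlier results of these data known. Named from each list were the 3 called genes of smallest p, beside all 34 measured genes, PSMD10, NFIL3 and cell type markers.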

Additional observations from a re-analysis of the deposited data

How the results depend on the processing

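With all 6 arrays, 1154 genes rose and 2035 fell. These counts ranged from 613 to 1808 and from 1071 to 2353 when 1 array was left out. The highest count of rises came without control replicate 3, and the lowest counts without a gankyrin array (630, 613 and 661 rises, 1104, 1130 and 1071 falls). The pathway genes then had 3 to 5 rises and 5 to 11 falls. They had 6 rises and 5 falls with the probe sets of a gene averaged, beside 1007 and 1396 among all genes. With no intensity trend they had 5 rises and 5 falls, beside 914 and 1605 among all genes. IGF2R, IGFBP6, IRS1, IRS2, GAB2, PIK3R1, SGK1 and DEPTOR kept call and direction in all 16 alternatives. Of the values of the 34 genes over these alternatives, 481 kept side and direction, 33 lost and 11 gained the call, and 17, none of a called gene, changed sign. Centring each array on the median of the tested genes, added after seeing the data, raised all differences by 0.10. It gave 2274 rises, with 60.7% of calls higher, beside 36.2% as deposited. FOXO3 then missed the threshold, and sign changes were AKT2 0.053, FOXO1 0.013, MTOR 0.033, RHEB 0.04, RICTOR 0.0067 and TSC2 0.043. Averaging probe sets turned IGF1R to 0.10, AKT2 to 0.30, RHEB to 0.08 and RPS6KB1 to 0.10, and passed PIK3R3. Single probe sets of opposite sign gave 0.11, 1.17 and 1.12 for AKT2, 0.08 for FOXO1, -0.023 and -0.20 for GAB1, 0.28, 0.013 and 0.31 for IGF1R, -0.027 for PDPK1, 0.69, 0.07, 0.05 and 0.05 for RHEB and 0.087 and 0.41 for RPS6KB1. Leaving out 1 array gave IGFBP3 -0.057 to 0.25, GAB1 -0.0067 to 0.14, PDPK1 -0.018 to 0.087, AKT2 -0.098 to 0.022, FOXO1 -0.14 to 0.005 and FOXO4 -0.36 to 0.023. With the replicate number as a replicate block, 1097 genes rose and 1952 fell, and 4 pathway genes rose and 10 fell, RPS6KB2 being lost (adjusted p = 0.0866) and TSC1 gained (0.0355). Deviations from the group means correlated at 0.0198, 0.108 and -0.0055 for same-numbered arrays, beside -0.0704 to 0.0481 for differently numbered ones. Values this low cannot settle whether the numbers pair the samples. PHLPP1 was lost by quantile normalization (adjusted p = 0.0545), and INSR, IGFBP4, PHLPP1 and FOXO3 with no intensity trend (0.0505 to 0.0705). For these losses and sign changes the cause was not tested.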
